A study of Rattus norvegicus with 24 samples.

Results

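Electroacupuncture (EA) after partial hepatectomy was compared with hepatectomy alone (HT) in rat central amygdala (CEA). The comparison rested on 6 of the 24 mRNA libraries of the series, CEA EA replicates 1 to 3 and CEA HT replicates 1 to 3, chosen by their titles. All animals were young male Sprague-Dawley rats, and both groups lost part of the left liver lobe under isoflurane, were held in a restraint belt while awake, and gave brain tissue a day after the last session. EA rats received pulsed current through needles on one side at the acupoints ST36 and SP6 on the day before and directly after surgery, and HT rats received no needle. Further CEA libraries came from unoperated rats held in the belt (NC) and from operated rats with needles but no current (SEA), 3 of each, and the same 4 groups were sampled in a second region, the hypothalamic paraventricular nucleus (PVN). The labels do not tie a library to a rat, so p-values measured the spread between these samples.

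The CEA is a largely GABAergic output nucleus. Its neurons are told apart by peptides and by protein kinase C delta (Prkcd), and include cells with corticotropin-releasing hormone (Crh), somatostatin (Sst), enkephalin (Penk) and dynorphin (Pdyn). It takes part in fear, pain and visceral stress responses and can act on the hypothalamic-pituitary-adrenal axis, which ends in the release of glucocorticoids. It lies beside the striatum and the cortical and basolateral amygdala, which are known for dopamine-receptor projection neurons and for glutamatergic neurons, so a dissected piece can hold such cells too.

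All 14 CEA neuron markers were detected. Counts scaled to library size (CPM) of Penk ranged from 474 to 1143 over the 6 libraries, those of Sst from 146 to 248 and those of Gad2, which makes GABA, from 309 to 607. Prkcd stood at 98.4, 486 and 174 CPM in the EA replicates and 20.1, 333 and 515 in the HT replicates, with its lowest values in the libraries lowest in the thalamic marker Slc17a6 (50.5, 238 and 116 CPM in EA, 6.40, 70.4 and 164 in HT). Single libraries stood apart in several gene lists. The study left a CEA EA library out of its co-expression network because of large differences, without saying which. Every CEA EA library was kept here. Summed CPM of 13 mitochondrial genome protein genes was 28812 in EA replicate 2 and 96210.1 to 137682 in the other 5. HT replicate 2 led in cytosolic ribosomal protein genes (25190.4 against 10262 to 15797), HT replicate 1 in striatal markers (6517 against 2292 to 3951) and EA replicate 1 in choroid plexus markers (398 against 8.88 to 28.9). The marker of cortical excitatory neurons Slc17a7 was at 21.6, 102 and 35.2 CPM in EA and 7.05, 85.8 and 301 in HT, highest in HT replicate 3. Total counts ran from 13838691 to 18607032 per library, so 3 counts were worth 0.161 to 0.217 CPM. In bulk tissue, fewer cells of a type and less RNA per cell cannot be told apart.

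**Figure D1:**
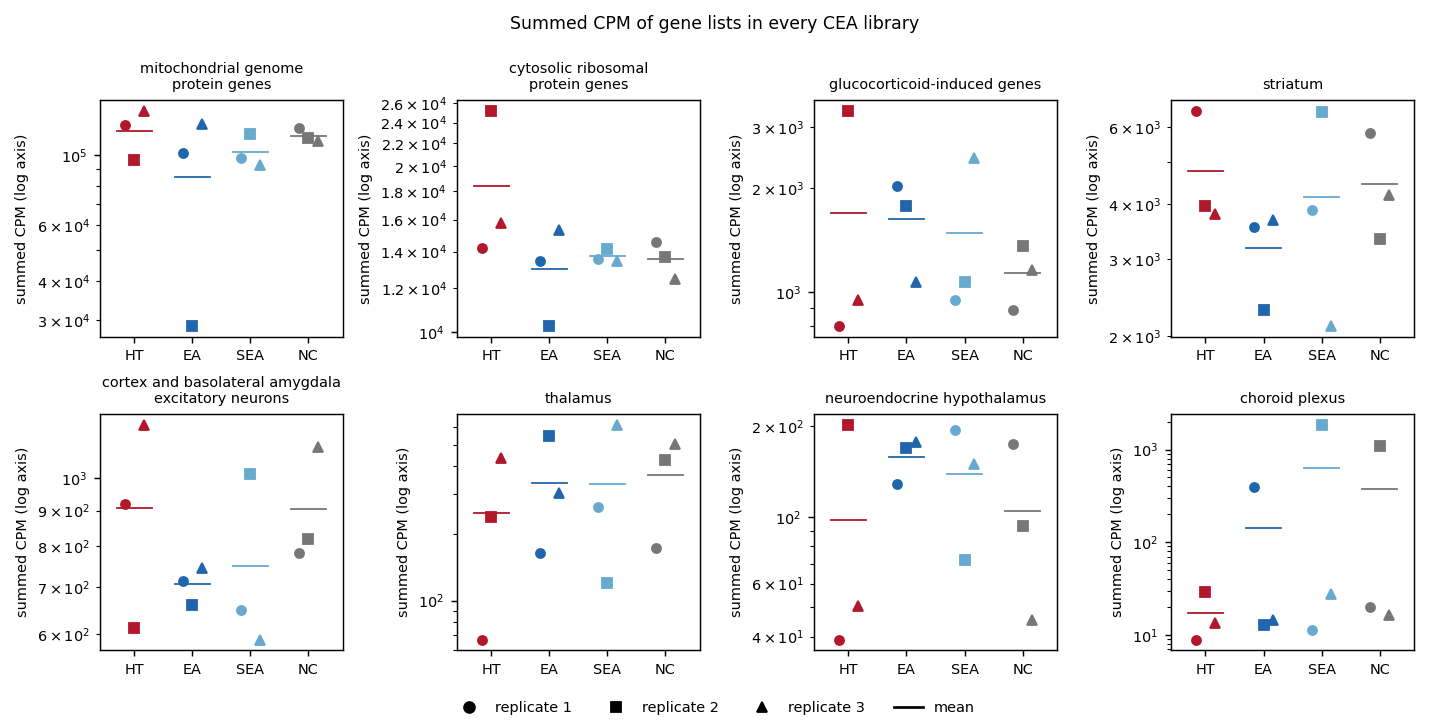
Summed CPM (log axes) of 8 gene lists in the 12 CEA libraries, with 1 symbol for each replicate and a bar at the group mean. EA replicate 2 lies lowest in mitochondrial genome genes at 28812 CPM, HT replicate 2 lies highest in ribosomal protein and glucocorticoid-induced genes, and HT replicate 1 lies highest in striatal markers.

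By edgeR's quasi-likelihood test, 0 of 16479 genes (0.0%) had an adjusted p under 0.05. Without adjustment, 526 genes (3.19% of those tested) had a p under 0.05, 300 higher in EA (1.82%) and 226 lower (1.37%). This balance turned to 560 higher and 637 lower with all 12 CEA libraries in one fit, and to 249 and 261 without EA replicate 3. All 3 EA libraries lay above all 3 HT libraries for 913 genes (5.54%) and below them for 664 (4.03%). Fold changes were above 0 for 47.5% of genes, and the median log2 fold change over all genes was -0.016. DESeq2, run on the same 6 libraries, called 7 of 24009 genes (0.0292%) at an adjusted p under 0.05, 6 of them higher in EA, but without HT replicate 3 it called 1 higher and 4 lower. The smallest edgeR adjusted p was 0.930, and the genes below are described by level and spread. None of them passed the edgeR threshold.

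The genes that stood higher in EA with the smallest edgeR p-values had log2 fold changes of 0.67 or more. Gpr165, an orphan G protein-coupled receptor (ENSRNOG00000012995, chromosome X, 65796429 to 65804591, plus strand), had 31.2, 37.5 and 25.7 CPM in the EA replicates and 13.9, 14.4 and 11.8 in the HT replicates. Every EA library lay above every HT library (log2 fold change 1.22, SE 0.19, edgeR adjusted p = 0.930, DESeq2 adjusted p = 0.00227). Unoperated controls were not uniform for this gene, with 35.3, 10.9 and 10.3 CPM. Grin2d, the GluN2D subunit of the NMDA receptor (ENSRNOG00000021063, chromosome 1, 101820461 to 101856881, minus strand), stood at 33.0, 42.4 and 37.4 CPM in EA and 22.4, 22.7 and 21.7 in HT (log2 fold change 0.74, SE 0.15). Nrp2, a co-receptor for semaphorins and vascular growth factors (ENSRNOG00000031232, chromosome 9, 69497121 to 69612087, plus strand), varied little within EA and within HT, at 17.1, 17.6 and 16.8 CPM in EA and 8.81, 10.4 and 10.5 in HT (log2 fold change 0.78, SE 0.17). Its sham libraries had 18.4, 13.0 and 16.3 CPM and its NC libraries 17.0, 11.5 and 12.5. Dcx, the microtubule protein of migrating young neurons (ENSRNOG00000047712, chromosome X, 115098675 to 115175299, minus strand), also varied little within EA and within HT, at 26.9, 23.9 and 28.2 CPM in EA and 16.2, 16.6 and 16.2 in HT (log2 fold change 0.67, SE 0.15). Zdbf2, an imprinted gene (ENSRNOG00000024114, chromosome 9, 70059683 to 70089778, plus strand), had 41.8, 43.7 and 37.4 CPM in EA and 27.0, 19.1 and 19.9 in HT (log2 fold change 0.88, SE 0.18). These genes were more abundant in the PVN, where the mean of the HT libraries was 158 CPM for Gpr165, 71.2 for Grin2d and 54.3 for Nrp2. It was 46.8 CPM for Dcx and 133 for Zdbf2. The part of hypothalamic tissue in their CEA values was not tested.

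Less abundant genes in the same group were further apart in ratio and rested on fewer counts. Galr1, a receptor for the peptide galanin (ENSRNOG00000016654, chromosome 18, 79243009 to 79258570, minus strand), had 1.37, 2.94 and 2.67 CPM in EA and 0.783, 0.704 and 0.541 in HT (log2 fold change 1.76, SE 0.43). Dcun1d2, which helps attach NEDD8 to cullins, had 2.23, 0.869 and 2.84 CPM in EA and 0.326, 0.192 and 0.240 in HT. Nol8, a nucleolar protein, stood at 3.10, 3.74 and 2.78 CPM in EA and 1.24, 0.960 and 0.481 in HT, and 1 sham library lay among HT and the others above EA (5.01, 0.627 and 4.89). AABR07001512.1, a gene model on chromosome 1 with no description, had 1.94, 1.34 and 1.30 CPM in EA and 0.261, 0.256 and 0.240 in HT. Across the 12 named genes that stood higher in EA, log2 fold changes ran from 0.67 for Dcx to 3.42 for NEWGENE_1559832.

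**Figure D2:**
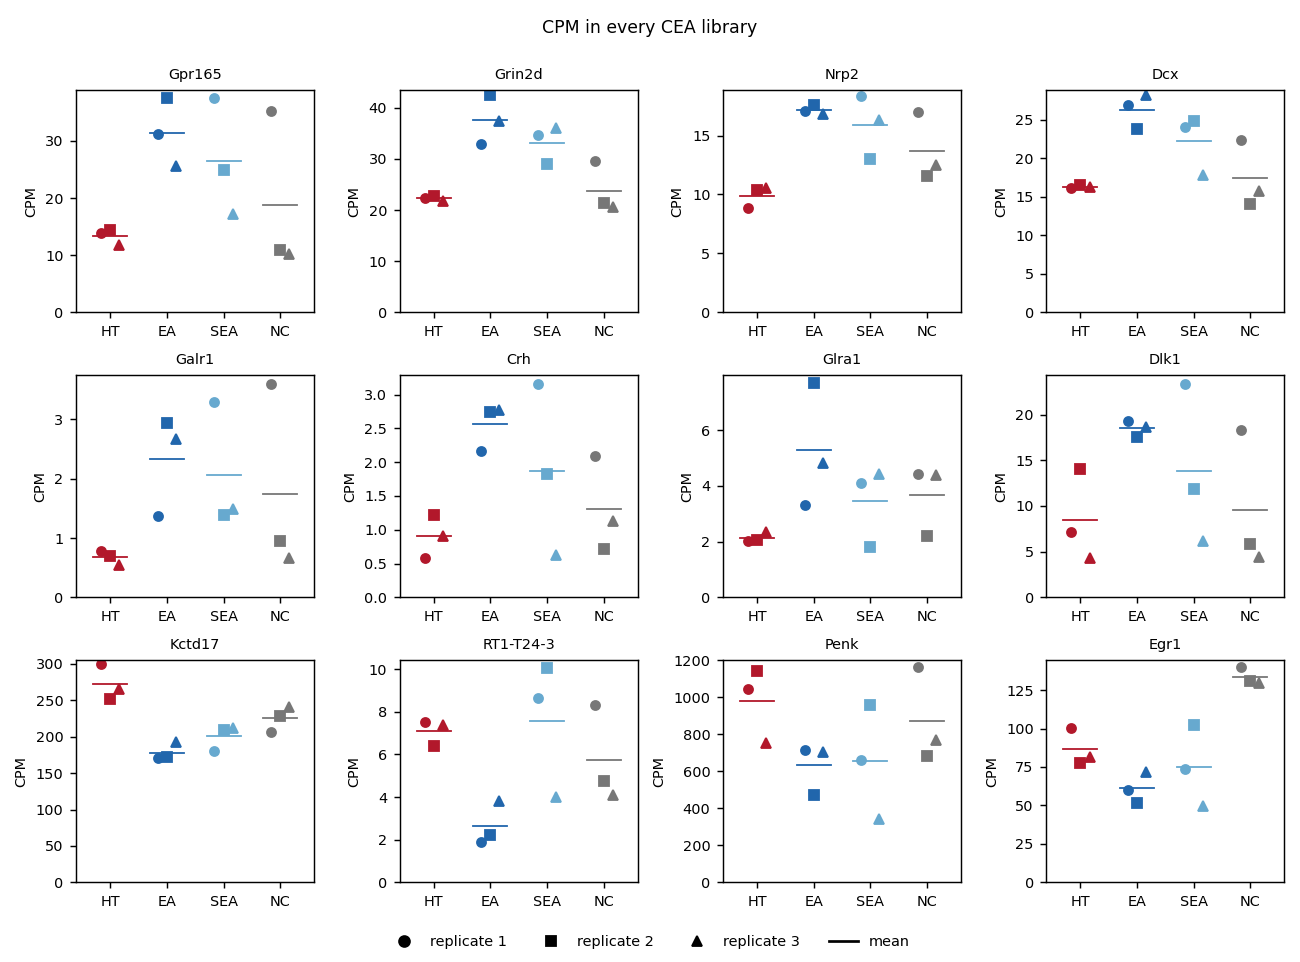
CPM (linear axes from 0) of 12 genes in the CEA libraries of the HT, EA, SEA and NC groups, 1 symbol per replicate and a bar at the group mean. In each panel the 3 EA libraries lie on one side of the 3 HT libraries. Gpr165 shows it with EA libraries from 25.7 to 37.5 CPM and HT libraries from 11.8 to 14.4.

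Of the 7 genes that DESeq2 called, 4 carry the name or description of another gene, and their counts are uncertain because reads can be split between near-identical copies. LOC103692716 (ENSRNOG00000059714, chromosome 6, 135107271 to 135112775, minus strand), described as heat shock protein HSP 90-alpha, had 164, 188 and 106 CPM in EA and 59.6, 41.0 and 39.5 in HT (log2 fold change 1.69, SE 0.26, DESeq2 adjusted p = 8.82e-06, edgeR adjusted p = 0.930). The gene that carries the name Hsp90aa1, an inducible cytosolic chaperone, lies 57543 bases away and had only 4.67 to 7.42 CPM, with each EA library above each HT library (log2 fold change 0.38, SE 0.24). Adding both gave 169, 195 and 112 CPM in EA and 64.4, 45.7 and 44.2 in HT, so the groups did not overlap in the sum. LOC100911372, a copy of the ribosomal protein gene Rps6 that DESeq2 did not call (adjusted p = 0.0923), was at 36.6, 15.0 and 43.4 CPM in EA and 12.3, 11.6 and 10.3 in HT. Rps6 itself, 9698 bases away, stood the other way, at 4.17, 3.74 and 4.59 CPM in EA and 6.92, 6.08 and 5.29 in HT. Summed with Rps6 the groups overlapped, at 40.8, 18.8 and 48.0 CPM in EA and 19.3, 17.7 and 15.6 in HT. RGD1563601, similar to the glycolytic enzyme gene Tpi1, was the one DESeq2 call lower in EA (1.66, 2.21 and 1.36 against 11.9, 2.43 and 18.7 CPM, adjusted p = 0.0154), and HT replicate 2 lay close to the EA libraries. Summed with Tpi1 the groups overlapped, at 45.7, 33.2 and 37.9 CPM in EA and 47.7, 26.6 and 54.4 in HT. The partner genes and sums were chosen after values were seen.

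NEWGENE_1559832 carries the description of Rlim, a ubiquitin ligase gene, and had 8.78, 7.96 and 1.25 CPM in EA and 0.849, 0.192 and 0.601 in HT (DESeq2 adjusted p = 0.00657). Its EA replicate 3 was near the HT libraries, and Rlim itself had at most 4 counts in any of the 6 libraries. LOC103689999, described as a saccharopine dehydrogenase-like oxidoreductase, stood at 31.6, 37.9 and 5.67 CPM in EA and 5.74, 4.99 and 2.70 in HT (DESeq2 adjusted p = 0.0154), and here EA replicate 3 fell among the HT libraries. AABR07028989.1 and Aldh18a1, an enzyme gene of proline synthesis, were called by DESeq2 too (adjusted p = 0.0207 and 0.0202) but did not pass the filter on low counts. Aldh18a1 had 111, 8 and 91 counts in the EA replicates and 5, 8 and 5 in the HT replicates, so EA replicate 2 equalled the highest HT library. AABR07028989.1 had 48, 71 and 7 counts in EA and 4, 1 and 2 in HT.

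Among the genes that stood lower in EA, the abundant ones were separated by modest ratios. Kctd17, which encodes a potassium channel tetramerization domain protein (ENSRNOG00000000231, chromosome 7, 119647375 to 119658148, plus strand), had 170.2, 172 and 193 CPM in EA and 299, 252 and 266 in HT (log2 fold change -0.63, SE 0.15, edgeR adjusted p = 0.930). Stk32c, a serine/threonine kinase gene, stood at 140.4, 152 and 143 CPM in EA and 186, 204 and 193 in HT (log2 fold change -0.44, SE 0.14). Rem2, a small GTPase known to restrain voltage-gated calcium channels, had 17.3, 17.4 and 23.4 CPM in EA and 32.4, 29.6 and 26.8 in HT (log2 fold change -0.62, SE 0.18). RT1-T24-3, a class I histocompatibility gene of a family of near-identical members (ENSRNOG00000045924, chromosome 20, 3226313 to 3233694, plus strand), had 1.87, 2.21 and 3.80 CPM in EA and 7.51, 6.40 and 7.39 in HT, with the smallest edgeR p in this direction (log2 fold change -1.44, SE 0.32, edgeR adjusted p = 0.930). LOC103689931, described as heterogeneous nuclear ribonucleoprotein A/B, had 7.41, 6.42 and 13.4 CPM in EA and 20.0, 33.8 and 19.8 in HT. The gene with that name, Hnrnpab, had 0 counts in all 6 libraries.

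Several of the lower genes rested on 1 or 2 HT libraries. Neurod6, a transcription factor gene of cortical excitatory neurons, was at 0.216, 0.334 and 0.680 CPM in EA and 0.718, 1.98 and 10.7 in HT, and its log2 fold change moved from -3.40 to as little as -1.68 when 1 library was left out. HT replicate 3, the highest for Neurod6, was also the highest for Slc17a7. Polr2h, an RNA polymerase II subunit gene, had 0.576, 0.401 and 0.397 CPM in EA and 0.653, 4.54 and 3.84 in HT, so HT replicate 1 was close to EA. AABR07066020.1 was at 0.914, 11.3 and 1.56 CPM in HT and 0.360, 0.602 and 0.680 in EA. In Prkrip1 HT replicate 2 was close to EA, at 18.4, 16.9 and 17.5 CPM in EA and 35.1, 19.6 and 33.2 in HT (log2 fold change -0.75, SE 0.23). Other lower genes stood apart in every HT library. Pxmp4, a peroxisomal membrane protein gene, had 15.5, 10.9 and 14.2 CPM in EA and 18.1, 22.6 and 22.2 in HT (log2 fold change -0.64, SE 0.20). Nudt1, which clears oxidised nucleotides, had 2.23, 2.14 and 2.50 CPM in EA and 3.20, 5.25 and 4.51 in HT (log2 fold change -0.93, SE 0.30).

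Peptide genes of the CEA were then examined, since the study addressed the stress of surgery. Crh, which encodes the hormone that starts the axis (ENSRNOG00000012703, chromosome 2, 104459999 to 104461863, minus strand), stood higher in EA, at 2.16, 2.74 and 2.78 CPM against 0.588, 1.22 and 0.901 in HT. Each EA library was above each HT library (log2 fold change 1.48, SE 0.38, edgeR adjusted p = 0.930), with 30, 41 and 49 counts in the EA replicates and 9, 19 and 15 in the HT replicates behind these values. NC libraries had 2.10, 0.710 and 1.13 CPM and sham libraries 3.16, 1.82 and 0.630. Of the 6 CRH system and corticosteroid receptor genes tested, Crh was the only 1 at an unadjusted p under 0.05 (3.19% over all genes). The receptor gene Crhr1 (-0.18, SE 0.25), the binding protein gene Crhbp (-0.52, SE 0.36) and Hsd11b1, which regenerates active glucocorticoid (-0.21, SE 0.20), had log2 fold changes under 0, and the median of the 6 was -0.19. With a library left out this median ran from -0.31 (without HT replicate 1) to -0.052 (without EA replicate 3).

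Penk stood lower in EA, at 716, 474 and 704 CPM against 1046, 1143 and 753 in HT, without overlap (log2 fold change -0.65, SE 0.24, edgeR adjusted p = 0.930). Sham libraries reached below EA and into the HT range, at 662, 957 and 343 CPM. Penk is abundant in striatum too, where the summed markers stood at 3548, 2292 and 3679.8 CPM in EA and 6517, 3951 and 3793 in HT, and their part in the Penk values was not tested. Oprl1, the nociceptin receptor gene, was at 20.9, 29.9 and 18.9 CPM in EA and 12.5, 15.8 and 15.7 in HT (log2 fold change 0.65, SE 0.22), and Penk and Oprl1 were the 2 of 8 opioid genes at an unadjusted p under 0.05 (3.19% over all genes), while without EA replicate 2 there were 0 by edgeR (253 of 16791 over all genes). Pdyn (-0.31, SE 0.25), the mu receptor gene Oprm1 (0.55, SE 0.51), the kappa receptor gene Oprk1 (0.42, SE 0.30) and the delta receptor gene Oprd1 (-0.44, SE 0.34) were not at that level. The median log2 fold change of the 8 was -0.028. Its sign turned with a single library, since it was 0.090 without EA replicate 2, 0.053 without HT replicate 2 and -0.16 without HT replicate 3.

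Cartpt, which encodes the CART peptide, was the 1 of 12 other neuropeptide genes higher in EA at an unadjusted p under 0.05, against 1.82% over all genes (18.7, 13.8 and 14.3 CPM in EA, 5.03, 12.3 and 9.97 in HT, log2 fold change 0.76, SE 0.32). Among 18 peptide receptor genes, Galr1 and the vasopressin receptor gene Avpr1a (1.73, 2.07 and 1.59 against 0.914, 1.02 and 1.02 CPM) were at that level, both higher in EA (1.82% over all genes). The medians were 0.28 for the peptides and 0.039 for the receptors. For the peptides it was -0.004 without HT replicate 1, and without HT replicate 2 it was 0.84 with 5 members higher at that level (451 of 16769 over all genes). In every other fit with a library left out, 0 peptide genes were higher at that level by edgeR (159 to 736 over all genes). The same held with all 12 CEA libraries in one fit (560 of 17046 over all genes). For the receptors the median was -0.015 without EA replicate 3. Dlk1, a marker of CEA neurons that the hypothalamus also expresses, stood at 19.3, 17.6 and 18.7 CPM in EA and 7.12, 14.0 and 4.26 in HT (log2 fold change 1.12, SE 0.38). Markers of neuroendocrine hypothalamus differed between libraries beside these peptide genes. Oxytocin (Oxt) was at 68.2, 75.0 and 77.1 CPM in EA and 16.9, 75.5 and 10.2 in HT, and the summed level of the 12 hypothalamic markers, of which 1 was at 0 counts in all CEA libraries, ran from 129 to 177 CPM in EA and from 39.1 to 202 in HT. The part of hypothalamic tissue in the values of Crh, Galr1, Dlk1 and the other peptide genes was not tested.

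Genes of inhibitory transmission had more fold changes above 0 than under it. Of 26 GABA and glycine transmission genes tested, 21 had a log2 fold change above 0 (47.5% over all genes), 5 were at an unadjusted p under 0.05, all higher in EA (1.82% over all genes), 6 lay without overlap above HT (5.54% over all genes), and the median was 0.25 (all genes -0.016). Glra1, the alpha 1 subunit of the glycine receptor, had 3.31, 7.69 and 4.82 CPM in EA and 2.02, 2.05 and 2.34 in HT, and its HT libraries were almost equal (log2 fold change 1.28, SE 0.35, edgeR adjusted p = 0.930). Among GABA-A receptor subunit genes, Gabra3 stood at 29.7, 38.6 and 29.5 CPM in EA and 14.7, 15.9 and 28.2 in HT (log2 fold change 0.72, SE 0.27) with HT replicate 3 close to the EA libraries. Gabrb1 had 14.8, 18.0 and 17.1 CPM in EA and 13.4, 8.58 and 11.3 in HT (log2 fold change 0.57, SE 0.21). Gabrq, at a low level, had 1.01, 1.80 and 2.55 CPM in EA and 0.457, 0.960 and 0.781 in HT (log2 fold change 1.27, SE 0.48). Glra2, named after its values were seen, was the fifth (9.72, 11.5 and 11.2 CPM in EA and 6.79, 8.39 and 7.63 in HT). EA replicate 2, the highest of the 6 libraries for Glra1, Gabra3, Gabrb1 and Glra2, also led in summed thalamic markers (547 CPM against 66.8 to 435), whose part was not tested. The synthesis genes Gad1 and Gad2 had log2 fold changes of 0.13 (SE 0.20) and 0.30 (SE 0.23). Left-out libraries moved the list's median between 0.18 and 0.36, and without EA replicate 2 1 member was at an unadjusted p under 0.05 (159 of 16791 genes higher in that fit). For EA over SEA the list's median was -0.002, and for EA over HT in the PVN it was -0.029. Summed CPM of the list ran from 5103 to 5690 in EA and from 4578 to 5352 in HT. The sums ran from 5410 to 5666 in SEA and from 5424 to 5595 in NC.

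Glutamate receptor genes did not lean one way. Of 22 tested, 13 had a fold change above 0 (47.5% over all genes), and the median was 0.056, or -0.12 without HT replicate 2. Beside Grin2d, the NMDA receptor subunit gene Grin3a (11.6, 13.0 and 8.51 against 7.18, 5.12 and 7.03 CPM) and the kainate receptor gene Grik1 (10.4, 11.2 and 11.001 against 5.48, 9.41 and 6.25) stood higher in EA at an unadjusted p under 0.05 (1.82% over all genes). Grik5, another kainate receptor subunit gene, stood lower, against 1.37% over all genes (151, 152 and 174 against 203, 224 and 183 CPM, log2 fold change -0.37, SE 0.15). Of 10 serotonin receptor genes, Htr2c was the 1 at that level (3.19% over all genes), at 135, 132 and 94.1 CPM in EA and 83.5, 97.3 and 66.9 in HT (log2 fold change 0.53, SE 0.21). The serotonin list had a median of 0.081, or 0.25 without HT replicate 1 and -0.070 without HT replicate 2. Without EA replicate 1, EA replicate 2, HT replicate 1 or HT replicate 3, 0 of its members were at that level by edgeR (253 to 1438 over all genes). The same held with all 12 CEA libraries in one fit (1197 of 17046 over all genes). Of 9 adrenergic and angiotensin receptor genes, 0 were at that level by edgeR, with a median of -0.011. With a library left out this median ran from -0.22 (without EA replicate 2) to 0.27 (without HT replicate 3).

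Genes of striatal projection neurons had fold changes mostly under 0. Of 17 dopamine receptor and striatal genes tested, 1 had a fold change above 0, 2 were at an unadjusted p under 0.05, both lower (1.37% over all genes), and the median was -0.27. Rgs9, which speeds the end of G protein signals, had 219, 132 and 241 CPM in EA and 478, 269.8 and 250.01 in HT (log2 fold change -0.77, SE 0.31). Ppp1r1b, the dopamine-regulated phosphatase inhibitor DARPP-32, stood at 1885, 1098 and 1948 CPM in EA and 3295, 2369 and 1983 in HT. The adenosine receptor gene Adora2a stood at 281, 175 and 304 CPM in EA and 523, 334 and 298 in HT. In each of these 3 genes HT replicate 1 was the highest and EA replicate 2 the lowest. Summed over 11 striatal markers, each of which was detected, EA libraries had 2292 to 3679.8 CPM and HT libraries 3793 to 6517, so the groups did not overlap, but the highest EA and the lowest HT library were close. Without HT replicate 1 the median of the 17 genes was -0.084 and 0 were at an unadjusted p under 0.05 by edgeR (702 of 16831 lower and 736 higher over all genes), and without HT replicate 3 5 were lower (240 of 16819 over all genes). Without EA replicate 2, 0 were at that level by edgeR (253 of 16791 over all genes). The same held with all 12 CEA libraries in one fit (1197 of 17046 over all genes). Chrm1, a muscarinic receptor gene, also stood lower in EA (37.5, 26.2 and 28.5 against 52.4, 37.3 and 39.3 CPM). In the striatal sum SEA libraries ranged from 2114 to 6489 CPM and NC libraries from 3327 to 5815. The part of neighbouring striatum in these values was not tested.

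Glucocorticoid-induced genes, which follow the circulating hormone, differed between libraries within each group. Of 20 tested, 0 were at an unadjusted p under 0.05 by edgeR, and the median log2 fold change was -0.15. Its sign turned with a single library, since it was 0.66 without HT replicate 2 and 0.037 without EA replicate 3. Without HT replicate 2, 7 of the 20 were higher in EA at an unadjusted p under 0.05 (451 of 16769 over all genes), and with both replicates 2 left out 3 were (388 of 16600). Fkbp5, a co-chaperone induced by glucocorticoids, stood at 118, 61.0 and 79.8 CPM in EA and 93.2, 162 and 65.5 in HT, highest in HT replicate 2 and then in EA replicate 1. The metallothionein gene Mt2A (104, 45.5 and 34.5 CPM in EA, 50.9, 173 and 56.7 in HT), the sulfotransferase gene Sult1a1 (48.2, 21.3 and 13.2 in EA, 28.3, 91.4 and 18.6 in HT) and Arrdc2 (37.4, 41.6 and 23.2 in EA, 23.5, 114 and 19.3 in HT) were also highest in HT replicate 2. All NC libraries lay below for Sult1a1, at 7.38, 7.34 and 7.09 CPM.

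Immediate early genes respond within minutes to synaptic activity. Of 16 tested, 6 had a fold change above 0 (47.5% over all genes), and 2 were at an unadjusted p under 0.05, both lower (1.37% over all genes). Egr1 had 60.2, 51.5 and 71.9 CPM in EA and 100.5, 77.8 and 81.5 in HT, without overlap (log2 fold change -0.51, SE 0.18, edgeR adjusted p = 0.930), and NC libraries lay above both at 140.2, 131 and 129. Npas4, a neuron-specific activity-dependent factor, had 1.22, 0.267 and 0.397 CPM in EA and 1.96, 1.02 and 3.003 in HT, so EA replicate 1 was above HT replicate 2 (log2 fold change -1.69, SE 0.64). The AP-1 subunit gene Junb stood at 43.2, 34.1 and 36.6 CPM in EA and 50.7, 53.2 and 42.5 in HT (log2 fold change -0.38, SE 0.17). Egr4 stood at 15.5, 11.03 and 17.1 CPM in EA and 29.8, 17.3 and 16.9 in HT (log2 fold change -0.56, SE 0.28), and both overlapped. Fos, the AP-1 partner of Junb, overlapped between the groups, at 3.81, 7.42 and 7.09 CPM in EA and 3.92, 5.25 and 6.85 in HT, and all 6 libraries lay below the NC libraries (10.9, 22.8 and 18.8). With any one library left out the median of the list stayed under 0, between -0.31 and -0.028. The count of lower members at an unadjusted p under 0.05 went from 2 to 0 by edgeR without EA replicate 2 (94 of 16791 over all genes) or without HT replicate 1 (702 of 16831), and to 3 without HT replicate 2 (234 of 16769) or HT replicate 3 (240 of 16819).

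Of the 16 immediate early genes, 11 had a promoter sequence in the RefSeq table used here (build GRCr8). The stretch of 250 bases before the start site is shown for Npas4, Junb and Egr4, which followed Egr1 in order of p, because transcription of such genes is known to run partly through CREB, a factor that binds the cyclic AMP response element. Capitals mark the core of that element, TGACG on either strand (CGTCA on the strand shown), which a search found in 8 of the 11 and in 18.2% of all 33469 promoter windows of this length. Npas4 (chr1:211716103-211716352, minus strand) holds no match, Junb (chr19:40080876-40081125, plus strand) holds 1, starting 155 bases before the start site, and Egr4 (chr4:119607818-119608067, minus strand) holds 2, at 178 and 110 bases. A match is a description of these letters, and a window without one says only that they are not in it.
Npas4: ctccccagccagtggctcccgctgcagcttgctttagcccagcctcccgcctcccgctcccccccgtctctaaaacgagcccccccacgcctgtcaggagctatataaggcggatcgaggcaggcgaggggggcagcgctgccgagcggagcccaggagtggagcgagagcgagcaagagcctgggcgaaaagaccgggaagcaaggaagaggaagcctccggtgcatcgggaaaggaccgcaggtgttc
Junb: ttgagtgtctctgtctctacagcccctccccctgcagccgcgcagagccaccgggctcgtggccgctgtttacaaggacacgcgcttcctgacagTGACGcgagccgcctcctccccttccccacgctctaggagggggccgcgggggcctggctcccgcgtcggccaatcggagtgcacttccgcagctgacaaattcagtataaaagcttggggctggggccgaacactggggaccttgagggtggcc
Egr4: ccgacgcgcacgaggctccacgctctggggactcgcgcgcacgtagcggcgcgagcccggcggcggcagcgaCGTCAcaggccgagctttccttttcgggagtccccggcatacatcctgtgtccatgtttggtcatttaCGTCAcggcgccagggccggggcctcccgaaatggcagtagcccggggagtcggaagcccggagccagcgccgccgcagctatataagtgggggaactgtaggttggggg

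Chaperone genes were split in direction. Of 26 heat shock and chaperone genes, 14 had a fold change above 0, and the median was 0.009. With a library left out the median ran from -0.056 (without EA replicate 2) to 0.091 (without HT replicate 2). Hspe1, the small mitochondrial chaperonin, was the 1 at an unadjusted p under 0.05, against 3.19% over all genes (50.7, 45.3 and 65.7 CPM in EA, 59.2, 94.5 and 78.0 in HT, log2 fold change -0.53, SE 0.22). Without EA replicate 1, EA replicate 2, HT replicate 2 or HT replicate 3, 0 were at that level by edgeR (253 to 685 over all genes). Without HT replicate 1, 3 were lower (702 of 16831 over all genes). Chordc1 and Hspa4l, both co-factors of cytosolic chaperones, stood at log2 fold changes of 0.35 (SE 0.20) and 0.42 (SE 0.26). The HSP 90-alpha copy LOC103692716 was not on the list.

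**Figure D3:**
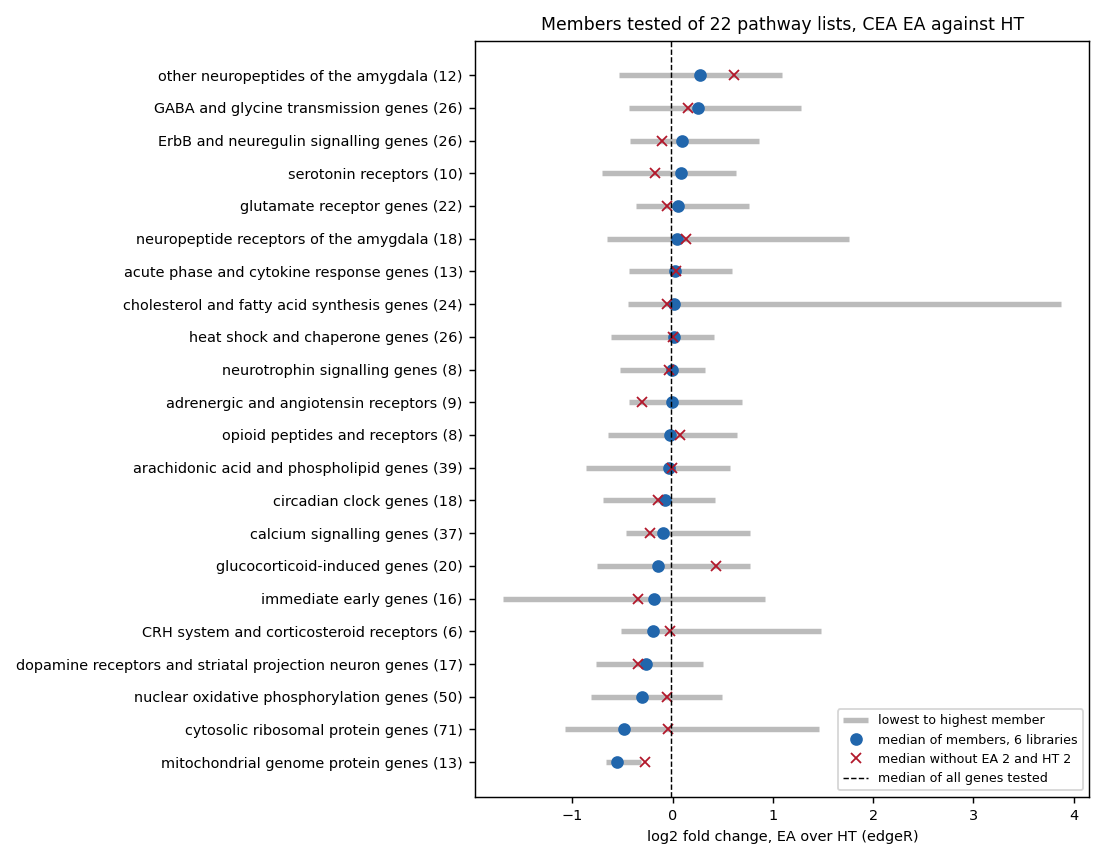
Log2 fold changes (EA over HT) of the members tested of 22 pathway lists, with the number tested in brackets. Grey bars run from the lowest to the highest member, blue points are medians over the 6 libraries, red crosses are medians without EA replicate 2 and HT replicate 2, and the dashed line is the median of all genes tested. The medians of ribosomal protein genes move from -0.48 to -0.045 and those of glucocorticoid-induced genes from -0.15 to 0.44 between the 2 sets.

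Genes of the ribosome and of respiration had the lowest medians of the pathway lists. Of 71 cytosolic ribosomal protein genes tested, 7 had a fold change above 0 (47.5% over all genes), 3 were at an unadjusted p under 0.05, all lower in EA (1.37% over all genes), and the median was -0.48. Many ribosomal protein genes have near-identical copies, so single values are uncertain. Rpl21 had 91.6, 50.1 and 99.4 CPM in EA and 128, 129 and 131 in HT (log2 fold change -0.70, SE 0.25). Rps12 had 57.0, 85.8 and 92.8 CPM in EA and 100.99, 206 and 111 in HT (log2 fold change -0.84, SE 0.30), with HT replicate 2 far above the rest. Rps19 had 60.0, 29.5 and 85.2 CPM in EA and 80.3, 159 and 125 in HT (log2 fold change -1.07, SE 0.39). Without HT replicate 2 the median of the list was -0.20 and 1 gene was at an unadjusted p under 0.05, lower in EA (234 of 16769 over all genes). Without HT replicate 1 the median was -0.63, with 28 genes lower and 2 higher at that level, in a fit where 702 of 16831 genes were lower and 736 higher. With all 12 CEA libraries in one fit, 29 of the list were lower (637 of 17046 over all genes), and with no filter on low counts 14 (374 of 24027). With both replicates 2 left out the median was -0.045. For EA over SEA the list's median was -0.051, and for EA over HT in the PVN it was 0.043.

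Of 13 protein genes of the mitochondrial genome, all 13 had a fold change under 0 and 0 were at an unadjusted p under 0.05, with a median of -0.56. Mt-co3, a cytochrome c oxidase subunit, stood at 13042, 3368 and 15215 CPM in EA and 15190.0, 14357 and 17569 in HT. Mt-nd6, a complex I subunit, stood at 1069, 381 and 1386 CPM in EA and 1417, 1209 and 1823 in HT, and EA replicate 2 was the lowest in both genes. Without it the median was -0.070. For EA over SEA the median of the mitochondrial list was -0.25. Of 50 nuclear genes of oxidative phosphorylation, 5 had a fold change above 0 (47.5% over all genes), and the median was -0.30, or -0.047 without HT replicate 2. For EA over SEA the median of this list was -0.062. Uqcrb (59.2, 39.7 and 71.2 against 64.5, 119.9 and 93.6 CPM), Cox6a1 (602, 544 and 735 against 675, 1171 and 954) and Atp5mc1 (111, 123 and 136 against 129, 231 and 168) were at an unadjusted p under 0.05, all lower in EA (1.37% over all genes) and all highest in HT replicate 2. The number lower at that level was 20 without HT replicate 1 (702 of 16831 over all genes), 12 with all 12 CEA libraries in one fit (637 of 17046), and 0 by edgeR without EA replicate 1, EA replicate 2 or HT replicate 2 (132 of 16813, 94 of 16791 and 234 of 16769).

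**Figure D4:**
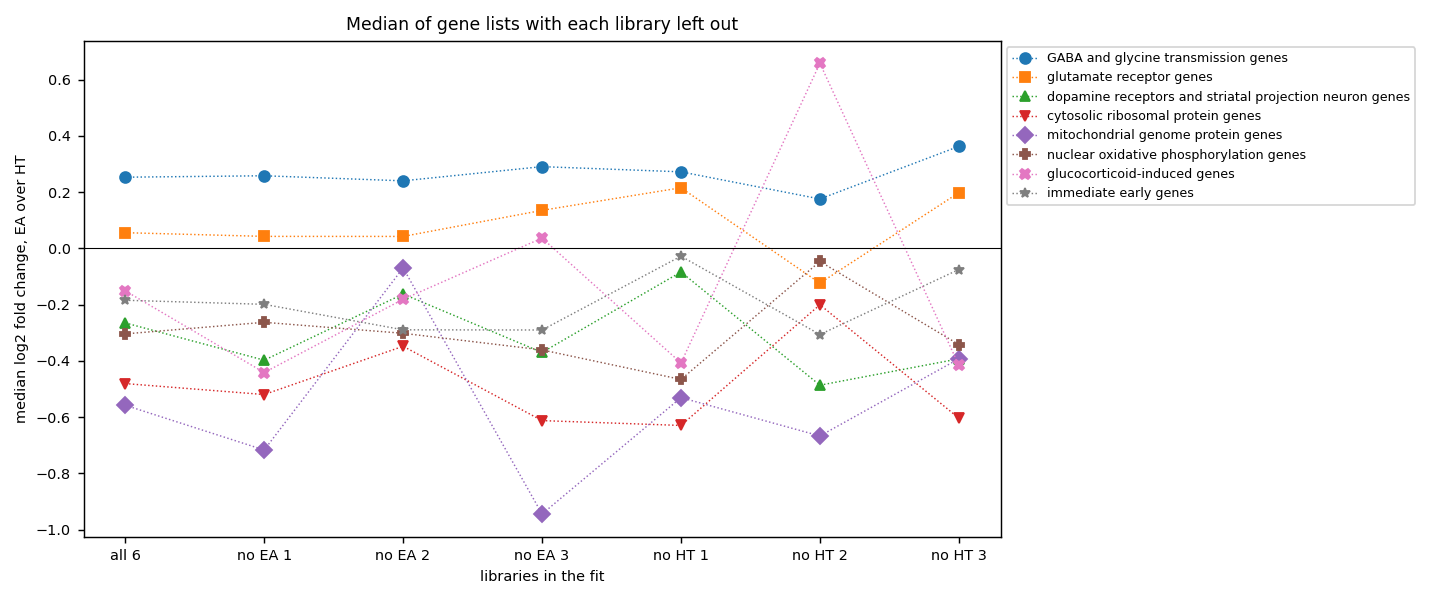
Median log2 fold change (EA over HT) of 8 gene lists in fits of all 6 libraries and with each library left out in turn. The GABA and glycine list stays above 0 in every fit, from 0.18 to 0.36, the glucocorticoid-induced list crosses 0, and the mitochondrial list comes nearest to 0 without EA replicate 2.

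ErbB, calcium and lipid signalling genes had few members at an unadjusted p under 0.05 (3.19% over all genes). Of 26 ErbB and neuregulin genes, Erbb4, the neuregulin receptor of interneurons, was the 1 at an unadjusted p under 0.05, with 26.7, 25.0 and 23.5 CPM in EA and 18.0, 7.75 and 15.3 in HT, lowest in HT replicate 2 (log2 fold change 0.86, SE 0.29). The list's median was 0.092, and -0.022 without HT replicate 2. Of 37 calcium signalling genes, Slc8a1, the sodium-calcium exchanger, stood higher in EA (35.9, 51.1 and 34.7 against 22.2, 14.5 and 33.6 CPM) and Calm2, a calmodulin gene, lower (366, 307 and 438 against 445, 527 and 544 CPM), both at an unadjusted p under 0.05, with a median of -0.092. The calcium median was 0.080 without HT replicate 1 and 0.022 without HT replicate 3. Without EA replicate 2, 0 members were at that level by edgeR (253 of 16791 over all genes). Of 39 arachidonic acid and phospholipid genes, 0 were at that level by edgeR (median -0.034). Tbxas1, thromboxane synthase, was nearest, at 1.73, 3.48 and 2.50 CPM in EA and 3.85, 5.25 and 3.48 in HT (log2 fold change -0.72, SE 0.34). Ptgds, a prostaglandin D synthase of meninges and choroid plexus, had 407, 169 and 257 CPM in EA and 318, 875 and 310.1 in HT. Neurotrophin genes had 0 of 8 and acute phase and cytokine genes 0 of 13 members at an unadjusted p under 0.05, with medians of -0.006 and 0.023.

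EA was set against needles without current, which shares the EA libraries with the comparison above. The edgeR test called 0 of 16322 genes (0.0%) after adjustment and 324 (1.99%) at an unadjusted p under 0.05. DESeq2 called 5, and without SEA replicate 3 edgeR called 1. For LOC103692716 the log2 fold change was 0.80 (SE 0.27) for EA over SEA and 0.89 (SE 0.26) for SEA over HT. For Gpr165 these were 0.26 (SE 0.28) and 0.95 (SE 0.28), for Crh 0.46 (SE 0.49) and 1.02 (SE 0.59), and for Grin2d 0.20 (SE 0.14) and 0.54 (SE 0.15). For Nrp2 they were 0.12 (SE 0.15) and 0.65 (SE 0.19), for Zdbf2 0.14 (SE 0.15) and 0.73 (SE 0.20), and for Dcx 0.26 (SE 0.15) and 0.41 (SE 0.17). RT1-T24-3 had -1.50 (SE 0.41) for EA over SEA and 0.054 (SE 0.33) for SEA over HT. Sham libraries of this gene stood at 8.64, 10.04 and 4.02 CPM, all above the EA libraries.

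The difference between the EA effects in the CEA and in the PVN was tested as an interaction over 12 libraries. The labels do not tell whether a CEA and a PVN library came from the same rat. The fit took the libraries as independent and modelled no pairing by rat. Here edgeR called 0 of 17299 genes (0.0%) after adjustment and 782 (4.52%) before it. DESeq2 called 50 of 22696 genes (0.22%), all with the higher log2 fold change in the CEA. Without CEA HT replicate 1 edgeR called 19 genes, and without CEA HT replicate 2 it called 8, with 0 in the other direction by edgeR or DESeq2 in these fits. Gpr165 had the smallest edgeR p, with log2 fold changes of 1.22 in the CEA and 0.10 in the PVN (edgeR adjusted p = 0.292, DESeq2 adjusted p = 0.000323). Grin2d had 0.74 in the CEA and -0.15 in the PVN (edgeR adjusted p = 0.292, DESeq2 adjusted p = 0.00107). Pgr15l, another G protein-coupled receptor gene on the X chromosome (66314418 to 66320145), stood at 0.504, 1.07 and 1.81 CPM in CEA EA and 0.131, 0.128 and 0.0601 in CEA HT, with a PVN log2 fold change of 0.012. LOC100911252, described as a peptidyl-prolyl isomerase A-like gene, had 0.85 in the CEA and -1.66 in the PVN, and AABR07024907.1, which did not pass the filter within the CEA libraries, had 0.648, 0.535 and 1.25 CPM in CEA EA, 0.392, 0.192 and 0.240 in CEA HT and a log2 fold change of -2.32 in the PVN. In the other direction, where no adjusted call was made, Rbp4, the retinol carrier, had log2 fold changes of -0.55 in the CEA and 0.52 in the PVN, Chrm1 -0.50 and 0.44, and Slc12a8 -0.97 and 0.80. Tyw1, of tRNA modification, had -0.42 and 0.19, and AABR07030162.1 -0.38 and 0.97. Of the 12 named genes higher in CEA EA, 11 could be tested in the PVN, where 5 had a fold change above 0. Of the 12 lower, 7 of 10 had a fold change under 0. AABR07001512.1 had 2.54 (SE 0.45) in the CEA and 2.38 (SE 0.44) in the PVN, and RGD1563601 -2.67 (SE 0.65) and -4.49 (SE 0.89).

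**Figure D5:**
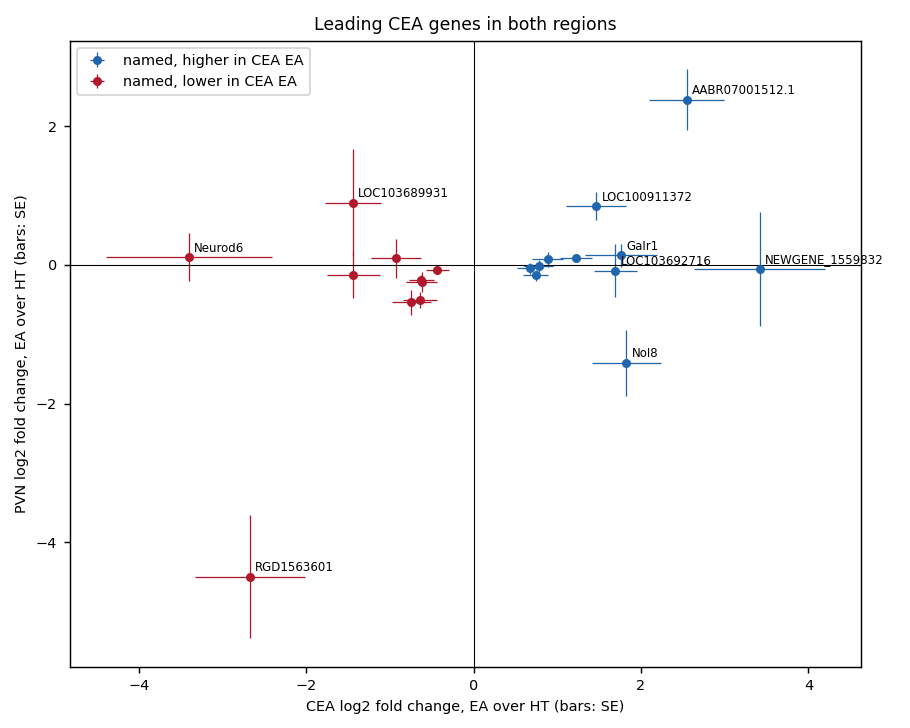
Log2 fold changes (EA over HT) with standard errors in the CEA (horizontal axis) and the PVN (vertical axis) for the named genes with the smallest CEA p-values that could be tested in both regions. RGD1563601 lies below 0 in both regions and AABR07001512.1 above 0 in both, while Nol8 lies above 0 in the CEA and at -1.41 in the PVN.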

How the data were processed

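Strand-specific mRNA libraries were sequenced, and the authors mapped reads with HISAT2 and deposited raw counts per gene from featureCounts, with no version, annotation release or counting strand given in the sources used here. Antisense and overlapping genes are therefore uncertain. The labels name a human genome build and the study's methods a rat assembly whose chromosome 1 is shorter than the largest coordinate in the table (282724300), so gene coordinates are given as deposited, without a build name. A second header inside the table exchanges replicates 2 and 3 of CEA EA, and the first header, which the titles match, was used.

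The 6 libraries were fitted with edgeR 4.0.16 (R 4.3.3; TMM scaling, filterByExpr, quasi-likelihood test, two-sided, Benjamini-Hochberg over all genes tested, threshold 0.05), with the SE taken from the F statistic. CPM used TMM scaling over all 24 libraries. DESeq2 1.42.0 was an alternative, and both were tested on simulated data. Other alternatives were RLE factors, no filter, no mitochondrial genes, all CEA groups in one fit, a replicate block and left-out libraries. Dropping both replicates 2 and the DESeq2 left-out fits were chosen after seeing the data.

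The members and the 36 gene lists (691 symbols, 670 matched) were chosen with earlier results of these data known. Genes were named by the smallest edgeR p among non-overlapping genes with an Ensembl identifier (12 per direction), by DESeq2 adjusted p, by the 4 smallest p per pathway list plus fixed genes such as Crh, by level and p per marker list and by the 5 smallest interaction p per direction. Rows that shared a symbol were represented by the one with the most counts. The floor of 3 counts covers counting error only. One gene is not reported here.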

Additional observations from a re-analysis of the deposited data

How the results depend on the processing

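At the adjusted threshold EA against HT stayed at 0 genes under every alternative run with edgeR, and DESeq2 called 7, 6 of them higher. DESeq2 with single libraries left out called 3 (without EA replicate 1) to 42 (without HT replicate 2) genes, and without HT replicate 3 it called 1 higher and 4 lower. Counts at an unadjusted p under 0.05 were 818 with no filter, 1197 with all 12 CEA libraries in one fit, 534 with RLE factors, and 253 (without EA replicate 2) to 1438 (without HT replicate 1) with a library left out, against 526. The higher and lower counts were 560 and 637 with all 12 CEA libraries, and 249 and 261 without EA replicate 3, against 300 and 226. For EA against SEA, DESeq2 called 5 genes and left-out libraries gave 0 to 1. For the difference between CEA and PVN, DESeq2 called 50 and left-out libraries gave 0 to 19 by edgeR, the latter without CEA HT replicate 1. The cause of these differences was not tested.

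Same-numbered EA and HT libraries of the CEA correlated at 0.30, 0.060 and -0.036 in their deviations from the group means. Under the second header, which exchanges EA replicates 2 and 3, they would be 0.30, 0.028 and 0.22. In neither numbering did every pair exceed 0.1, so the numbers were not taken as pairs, and the block below used the first header only. The replicate block left 0 genes at the adjusted threshold in all 3 comparisons, and before adjustment gave 498, 201 and 748 genes for EA against HT, EA against SEA and the difference between regions. Under the block the log2 fold change of Prkcd was 0.40.

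Of 92 named genes followed over 13 alternatives, 80 kept their direction in all of them. With 1 library left out, ranges that crossed 0 were -0.57 to 0.012 for AABR07030162.1, -1.03 to 0.66 for Arrdc2, -0.62 to 0.11 for Fkbp5, -0.051 to 0.26 for Gad1, -1.25 to 0.18 for Mt2A, -1.11 to 0.50 for Prkcd, -2.23 to 0.18 for Slc17a7 and -1.44 to 0.22 for Sult1a1. With both replicates 2 left out, values that changed sign were 0.074 for AABR07030162.1, 0.49 for Arrdc2, 0.31 for Fkbp5, -0.015 for Hspa4l, 0.35 for Mt2A, -0.18 for Oprm1, 0.073 for Ptgds, -0.041 for Slc17a6 and 0.38 for Sult1a1. Of the 22 pathway lists, 9 kept the sign of their median in the 12 alternatives run with edgeR: CRH system and corticosteroid receptors, immediate early genes, cytosolic ribosomal protein genes, mitochondrial genome protein genes, nuclear oxidative phosphorylation genes, arachidonic acid and phospholipid genes, dopamine receptors and striatal projection neuron genes, GABA and glycine transmission genes and circadian clock genes. The mitochondrial list has no median in the fit without its genes, and no list median was taken with DESeq2. The depth limits genes near 3 counts per library.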

Other observations

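Support cells and daily rhythm genes were read from the same fit of EA over HT. Of 11 astrocyte markers, Fgfr3, a growth factor receptor gene, was the 1 at an unadjusted edgeR p under 0.05 (3.19% over all genes), with 196, 173 and 156 CPM in EA and 144, 128 and 122 in HT, and the median log2 fold change of the list was 0.016. Gfap, the intermediate filament of astrocytes, stood at 365, 416 and 468 CPM in EA and 364, 450.1 and 315 in HT (log2 fold change 0.13, SE 0.19). Of 7 oligodendrocyte precursor markers, C1ql1 was lower in EA at that level (20.2, 16.2 and 23.7 against 25.3, 30.5 and 27.8 CPM, 1.37% over all genes) and the median was 0.064. The medians were -0.088 for 12 oligodendrocyte markers, -0.13 for 11 microglia markers, of which 1 had a fold change above 0, -0.069 for 11 vessel markers, 0.17 for 8 meningeal markers, 0.41 for 5 ependymal markers and 0.029 for 7 blood markers, and 0 of their members were at an unadjusted edgeR p under 0.05. The ependymal median was 1.67 without HT replicate 2, with 4 of 5 markers higher at that level (451 of 16769 over all genes), and 0.090 without HT replicate 3. The vessel median was 0.069 without HT replicate 1. Without HT replicate 2 the oligodendrocyte median was 0.021 and the meningeal median -0.009. The blood median was -0.20 without EA replicate 1 and 0.39 without HT replicate 3. Of 18 clock genes 1 was at that level (3.19% over all genes), with a median of -0.073, and of 24 cholesterol and fatty acid synthesis genes 1 was higher (1.82% over all genes) and 1 lower (1.37%), with a median of 0.013.

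Markers of tissue beside the CEA had log2 fold change medians that moved with single libraries. They were 0.67 for 8 thalamic, 0.45 for 7 hypothalamic, -0.71 for 9 cortical, -0.62 for 10 striatal and 1.496 for 7 choroid plexus markers tested, against 0.094 for 14 CEA neuron markers. The hypothalamic median was 0.072 without HT replicate 1, and without HT replicate 2 it was 1.61 with 6 of 7 markers higher at an unadjusted edgeR p under 0.05 (451 of 16769 over all genes). The thalamic median was 0.14 without EA replicate 2, the choroid plexus median was -0.25 without EA replicate 1, the cortical median 0.080 without HT replicate 3 and the striatal median -0.22 without HT replicate 1.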
